A study of Mus musculus with 24 samples.

Results

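The nuclear-encoded subunits of the mitochondrial respiratory chain, with cytochrome c and a few of the chain's assembly factors, were followed in mouse primary keratinocytes across genotype, Hras and a PPAR-beta agonist. The genes were chosen by symbol: those that start with Ndufa, Ndufb, Ndufs, Ndufv, Ndufc or Uqcr, those of the Cox4 to Cox8 series, and Sdha, Sdhb, Sdhc, Sdhd, Cyc1 and Cycs. This gave 74 of the 19937 genes that had a probe set with a single gene symbol. Each gene was read from 1 probe set, chosen as the brightest on average, and 12 of the 74 had several to choose from. By complex, 6 were core and 28 accessory subunits of complex I, 7 were complex I assembly factors, 4 belonged to complex II and 9 to complex III, and Cycs stood alone. A further 10 were complex IV subunits made in all tissues, Ndufa4 among them, 8 were tissue-restricted complex IV isoforms, and 1, Cox7a2l, helps to join complexes into supercomplexes. The 58 genes that are neither assembly factors, tissue isoforms nor Cox7a2l are called the common subunits below.

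The respiratory chain passes electrons from NADH at complex I, and from succinate at complex II, through ubiquinone, complex III and cytochrome c to oxygen at complex IV, and pumps protons across the inner mitochondrial membrane on the way. Fatty acid oxidation supplies this chain with NADH, and also sends electrons directly to ubiquinone through the electron transfer flavoprotein (Etfa, Etfb) and its dehydrogenase (Etfdh). PPAR-beta, also called PPAR-delta, is a nuclear receptor for fatty acids whose agonists are known to raise genes of fatty acid oxidation, and GW0742 is a synthetic agonist of it.

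Affymetrix Mouse Gene 1.0 ST arrays were used for total RNA from 8 groups of 3 arrays, 24 in all, and expression is given as log2 values. The groups were Ppar-beta null or wild-type cells, each infected for 48 hours with a retrovirus encoding Hras or mock infected, and each given 1 uM GW0742 for 24 hours or the vehicle DMSO. No group is labelled as given a virus without Hras. Changes said below to come with Hras therefore cannot be told apart from those of retroviral infection. All groups came from strain C57/BL6 according to the labels, which name neither the null allele nor separate animals or cultures for the arrays, so the p-values rest on array-to-array spread that could be purely technical. The question was whether the agonist raised respiration genes as it raised those of fatty acid oxidation, and how Hras and genotype bore on them.

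Array medians ran from 7.46 to 7.53, and with 3 arrays a group precision is limited. The basal keratins Krt5 and Krt14, which define keratinocytes, read between 13.94 and 14.3 on all 24 arrays, where the highest value of any probe set was 14.76. They do not show a steady keratinocyte content. The mean of 11 keratinocyte markers was 12.8 on wild-type mock DMSO arrays and 11.6 to 11.7 on wild-type Hras DMSO arrays. In null DMSO cells it was 12.9 with mock infection and 11.7 with Hras. Most of that lower mean came from Krt1 and Krt10, keratins of differentiating cells whose changes are given below. The mean is therefore not a measure of keratinocyte content either. Ppard, the gene of PPAR-beta, was lower in null cells, by 0.57 in mock and 0.28 in Hras cells given DMSO (log2), with no overlap between genotypes in either, but the sources used here do not place its probes inside or outside the deleted part, and probes outside it would check nothing. Arrays varied most among null Hras GW0742 cells, with a median SD of 0.0875 over the 74 genes, against 0.0458 to 0.0783 in the other groups. In bulk RNA, fewer cells of a type and less RNA per cell cannot be told apart, and many of these genes have processed pseudogenes whose RNA the same probes could read.

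Promoters were set out first for the genes with the largest genotype differences in mock cells (Sdhb, Sdhd) and for a pair that fell with Hras in both genotypes (Cox6a1, Uqcrh). Each line gives the coding strand from 250 bases before the start of transcription to 50 after it, from RefSeq on GRCm38.p6, with motif matches in capitals. Sdhb lies on the plus strand at chr4:140961021-140961320, Sdhd on the minus strand at chr9:50603800-50604099, Cox6a1 on the minus strand at chr5:115348909-115349208 and Uqcrh on the minus strand at chr4:116075021-116075320.
Sdhb: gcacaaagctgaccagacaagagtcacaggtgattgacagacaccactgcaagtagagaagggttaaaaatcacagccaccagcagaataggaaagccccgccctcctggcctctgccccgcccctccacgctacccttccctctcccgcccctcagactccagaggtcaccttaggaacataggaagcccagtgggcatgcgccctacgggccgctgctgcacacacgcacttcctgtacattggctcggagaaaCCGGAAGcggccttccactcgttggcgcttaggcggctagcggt
Sdhd: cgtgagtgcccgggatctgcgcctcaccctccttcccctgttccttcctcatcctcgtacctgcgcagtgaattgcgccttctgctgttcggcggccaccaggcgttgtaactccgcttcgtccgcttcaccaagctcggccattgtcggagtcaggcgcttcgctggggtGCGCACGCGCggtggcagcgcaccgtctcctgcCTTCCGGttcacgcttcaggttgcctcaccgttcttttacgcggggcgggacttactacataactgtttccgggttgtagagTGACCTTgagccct
Cox6a1: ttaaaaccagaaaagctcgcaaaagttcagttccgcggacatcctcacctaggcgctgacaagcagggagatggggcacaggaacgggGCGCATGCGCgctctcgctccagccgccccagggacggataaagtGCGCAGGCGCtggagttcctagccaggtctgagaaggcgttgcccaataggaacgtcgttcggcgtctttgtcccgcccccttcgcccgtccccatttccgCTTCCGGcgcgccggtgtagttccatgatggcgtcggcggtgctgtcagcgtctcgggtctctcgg
Uqcrh: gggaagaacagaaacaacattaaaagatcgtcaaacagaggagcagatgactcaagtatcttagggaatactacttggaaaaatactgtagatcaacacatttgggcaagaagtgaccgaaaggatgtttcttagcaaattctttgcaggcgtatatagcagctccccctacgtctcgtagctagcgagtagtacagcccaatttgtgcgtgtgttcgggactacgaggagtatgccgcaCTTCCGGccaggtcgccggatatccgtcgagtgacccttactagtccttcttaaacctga

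Motifs of 4 kinds of factor were searched on both strands, and 59 of the 74 genes had a promoter in the RefSeq table of 27025 genes. NRF1, a factor known for respiratory genes, has the motif GCGC, any base, then TGCGC, which 12 of the 59 held (20.3%), against 5.19% of all promoters. The GABP motif CCGGAAG, an ETS site also known from this gene class, was in 12 of the 59 (20.3%), against 9.93% of all promoters. The estrogen-related receptor motif AAGGTCA was in 3 of the 59 (5.08%), against 5.38% of all. A PPAR-type repeat, AGGNCA, any base, then AGGNCA again, which can overlap the previous motif, was in 0 of the 59 and in 0.451% of all promoters. It was also in 0 of the 15 fatty acid oxidation genes that had a promoter, so its absence does not set the respiratory chain genes apart from them. Of those printed, Sdhd held matches to the first 3 motifs, Cox6a1 to NRF1 and GABP, and Sdhb and Uqcrh to GABP. The promoter of Cycs was searched in the same way, is not printed, and held no match to any of the 4 motifs. A match describes letters in this window and is not a measured binding site.

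With GW0742 in wild-type mock cells, no change passed among the respiratory chain genes, while genes of fatty acid oxidation rose. Of the 74, 0 passed limma's test (adjusted p under 0.05 over all 19937 genes), where 2.86% of all genes passed, and at an unadjusted p under 0.05 2 were higher and 1 lower. The median log2 change was -0.0065 over the 74 genes, against 0.0042 over all genes. Of 18 measured genes of mitochondrial fatty acid oxidation, 12 rose and 0 fell, with a median of 0.58. Decr1, which processes unsaturated fatty acids, rose by 1.98 ± 0.10 (log2 change ± SE) and Cpt1a, the gate for fatty acid entry into mitochondria, by 1.30 ± 0.07.

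The step where fatty acid oxidation meets the chain moved with fatty acid oxidation. Etfdh read 10.61, 10.61 and 10.57 in wild-type mock GW0742 cells, against 9.965, 9.997 and 10.04 in wild-type mock DMSO cells. Etfb read 11.75, 11.73 and 11.80 with GW0742, against 11.09, 11.07 and 11.14 with DMSO. Neither gene's arrays overlapped, and the rises were 0.60 ± 0.09 for Etfdh and 0.66 ± 0.06 for Etfb (adjusted p 0.00029 and 7.1e-07). Etfa rose by 0.45 ± 0.09 (adjusted p 0.0041), while Ivd, a dehydrogenase of leucine breakdown that feeds the same carrier, fell by 0.30 on the log2 scale (adjusted p 0.026).

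Cytochrome c and Cox4i1, the common isoform of a nuclear-encoded complex IV subunit, show the size of what was measured beyond that step. Cycs read 12.27, 12.34 and 12.26 in wild-type mock GW0742 cells, against 12.21, 12.12 and 12.12 in wild-type mock DMSO cells. Those arrays did not overlap, and the change of 0.14 ± 0.07 did not pass (adjusted p 0.44). Cox4i1 read 11.21, 11.19 and 11.11 with GW0742, against 11.25, 11.24 and 11.12 with DMSO, and its groups overlapped. Across the 58 common subunits the highest upper 95% bound was 0.39 on the log2 scale, or 1.31-fold, for Ndufa12, and all 58 intervals lay within a 1.5-fold change either way. A rise of the size seen in Decr1 or Cpt1a lies outside the interval of every common subunit.

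**Figure D1:**
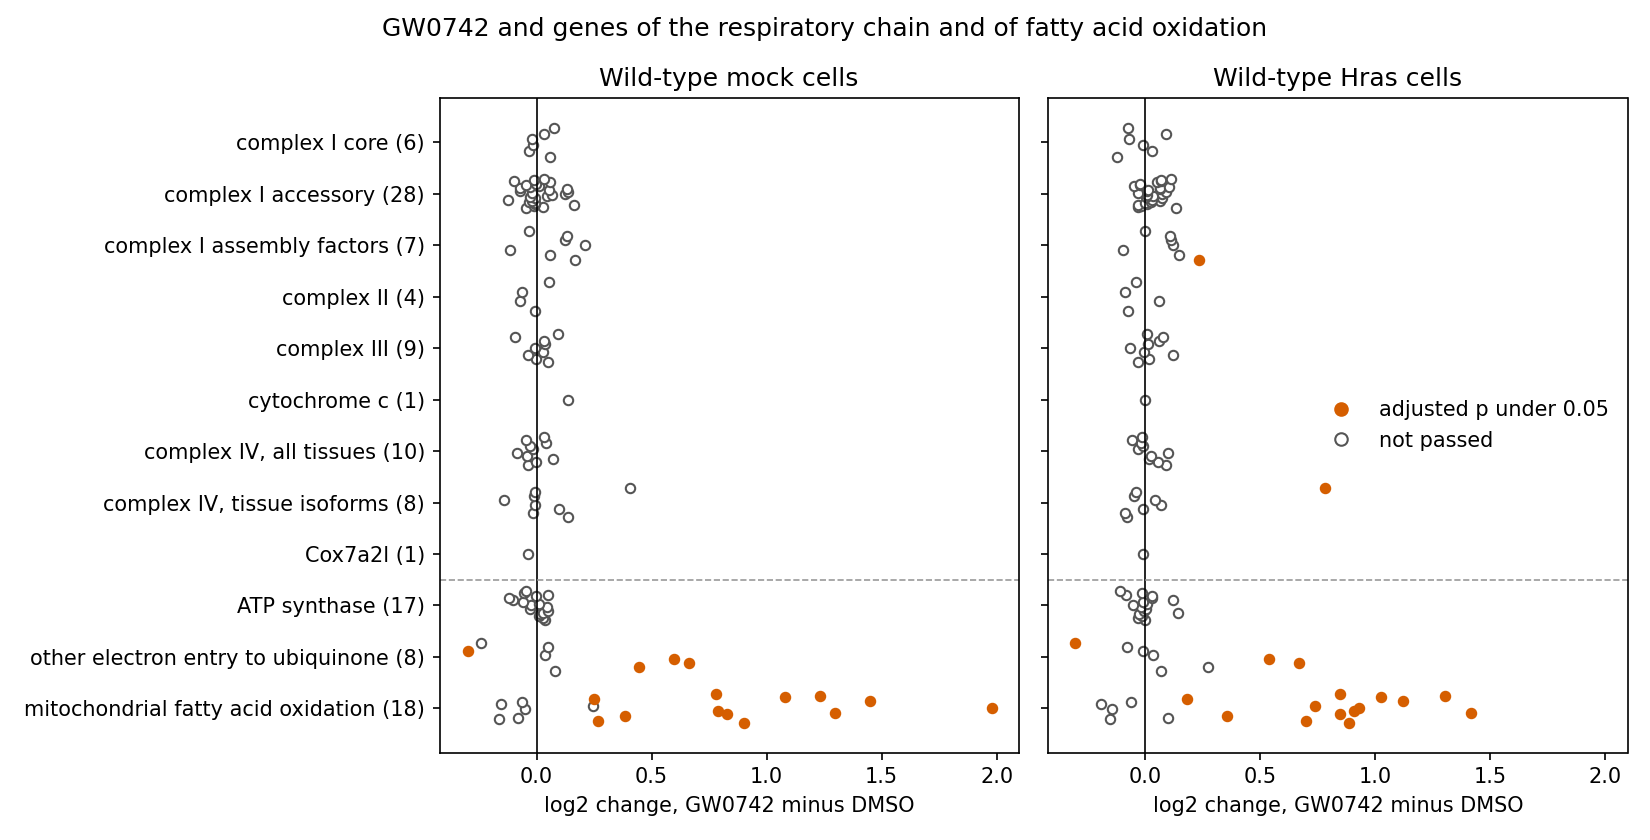
Log2 change with GW0742 over DMSO (x axis) in wild-type mock cells (left) and wild-type Hras cells (right) for each gene, 1 point a gene, by complex, with the ATP synthase, other electron entry to ubiquinone and fatty acid oxidation lists below the dashed line and gene counts in brackets. Filled points passed limma's test at an adjusted p of 0.05: 12 and 13 of the 18 fatty acid oxidation genes, and 0 and 2 of the 74 respiratory chain genes.

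In wild-type Hras cells no common subunit passed either. Of the 74 genes 2 rose and 0 fell, where 6.11% of all genes passed, and neither was a common subunit. All 58 common subunits had an interval within a 1.5-fold change, the highest upper bound being 0.32 on the log2 scale for Ndufa1. The median change was 0.0082 over the 58 as over the 74, against -0.0097 over all genes. In the same cells 13 of 18 fatty acid oxidation genes rose, with a median of 0.79, led by Cpt1a at 1.42 ± 0.07. Etfb rose by 0.67 ± 0.06 and Etfdh by 0.54 ± 0.09, both on non-overlapping arrays. Etfa was 0.27 ± 0.09 higher and did not pass (adjusted p 0.070), and Sqor, the sulfide oxidase, fell by 0.31 on the log2 scale (adjusted p 0.031). The ATP synthase genes, which use the proton gradient, had 0 of 17 passing in either wild-type comparison, and at an unadjusted p under 0.05 also 0. Among 12 regulators of mitochondrial biogenesis, 0 passed in wild-type mock cells (0 also unadjusted), while the coactivator gene Ppargc1a fell with GW0742 in wild-type Hras cells (-0.42 ± 0.09, adjusted p 0.0047) and Gabpb1, a subunit of GABP, rose (0.29 ± 0.06, adjusted p 0.0049).

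The genes that rose with GW0742 in wild-type Hras cells were Ndufaf1 and Ndufa4l2. Ndufaf1, a complex I assembly factor, read 9.07, 9.29 and 9.07 in wild-type Hras GW0742 cells, against 9.001, 8.80 and 8.92 in wild-type Hras DMSO cells. The groups did not overlap, and the rise was 0.23 ± 0.06 (adjusted p 0.028). The call was lost without replicate 2 of either group or replicate 3 of the DMSO group, where adjusted p was 0.063 to 0.19, and reached 0.20 with only the 6 arrays compared. In wild-type mock cells the same gene was 0.16 ± 0.06 higher and did not pass (adjusted p 0.22).

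Ndufa4l2, a paralogue of Ndufa4 known to be induced by low oxygen, read 9.24, 9.42 and 9.63 in wild-type Hras GW0742 cells, against 8.15, 8.83 and 8.97 in wild-type Hras DMSO cells. The arrays did not overlap, and the rise was 0.78 ± 0.23, or 1.72-fold (adjusted p 0.047). This call held in 5 of 13 alternatives, with adjusted p from 0.020 to 0.29; it was lost without replicate 1 or 2 of the DMSO group and without each GW0742 array, and the change was 0.53 without DMSO replicate 1. In null Hras cells it read 10.07, 10.73 and 10.28 with GW0742, against 8.62, 9.74 and 9.62 with DMSO. The rise there was 1.04 ± 0.23 (adjusted p 0.0088), and DMSO replicate 1 stood apart: without it the change was 0.68 with an adjusted p of 0.061, without GW0742 replicate 2 it was 0.85 with 0.087, and with only the 6 arrays compared the adjusted p was 0.26. Beside this, 6 of 9 melanocyte markers rose with GW0742 in null Hras cells, with summed levels (log2 of the sum) of 13.2 to 13.5, against 12.8 to 13.0 with DMSO. The adipocyte markers summed to 10.2 to 10.4 with GW0742, against 9.70 to 9.77 with DMSO, and the leukocyte markers to 9.79 to 10.26, against 9.60 to 9.68. In each of these lists 1 gene passed, Fabp4 of 6 adipocyte and H2-Ab1 of 8 leukocyte markers, as did 1 keratinocyte marker (higher) and 1 fibroblast marker (lower). Of all genes 3.51% were higher and 1.51% lower in that comparison. With only the 6 arrays compared, 0 of 19937 genes passed, so these marker calls were lost as well. In wild-type Hras cells the adipocyte markers summed to 10.2 to 10.5 with GW0742, against 9.51 to 9.67 with DMSO, and the leukocyte markers to 9.63 to 9.73, against 9.44 to 9.47. Fabp4, a lipid-binding protein gene, rose there by 1.60 ± 0.11 and H2-Ab1, a class II histocompatibility gene, by 0.85 ± 0.16, with 0 of 9 melanocyte markers passing (1 higher unadjusted). Of the keratinocyte markers 1 of 11 rose and 1 fell there, and of the fibroblast markers 1 of 8 rose. Of all genes 4.46% were higher and 1.65% lower in wild-type Hras cells. The part of these markers in the Ndufa4l2 rises was not tested. The difference of the agonist effect between genotypes in Hras cells was 0.26 ± 0.33 for Ndufa4l2 (adjusted p 0.87), so a dependence on genotype was not shown.

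In null cells GW0742 gave no rise of a common subunit. In null mock cells limma called 0 of the 74 genes, 0% of all genes passed, and at an unadjusted p under 0.05 0 of the 74 were higher and 14 lower. The 74 genes had a median change of -0.072 there, with 62 of 74 below 0, against a median of 0.0018 over all genes, and none of the 18 fatty acid oxidation genes passed (1 higher and 1 lower unadjusted). In null Hras cells 1 of the 74 genes passed (Ndufa4l2), where 5.02% of all genes did, and 1 fatty acid oxidation gene rose and 1 fell.

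The difference of the agonist effect between genotypes was tested directly. In mock cells 0 of the 74 genes differed, where 0.848% of all genes did (limma; 0 higher and 5 lower unadjusted), and in Hras cells 0 of the 74, where 1.73% of all did (0 higher and 7 lower unadjusted). In the same tests 10 and 12 of the 18 fatty acid oxidation genes had a lower agonist effect in null cells. The agonist effect in wild-type Hras minus wild-type mock cells differed for 0 of the 74 genes, where 2.47% of all genes did (1 higher and 0 lower unadjusted). These comparisons share arrays with those above, so they are not separate evidence.

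Hras went with lower levels of many respiratory chain genes in both genotypes. In null DMSO cells 28 of the 74 fell and 7 rose, and in wild-type DMSO cells 34 fell and 2 rose. Among all genes 40.7% passed in null and 37.4% in wild-type cells, and 20.5% and 19% were lower, against 37.8% and 45.9% of the 74. The median change of the 74 was -0.094 in null and -0.15 in wild-type cells, against 0.0019 and 0.016 over all genes. The changes were small: most of those that fell lay under 0.4 on the log2 scale. Of the genes that passed, 33 of 35 in null and 35 of 36 in wild-type cells had arrays that did not overlap (94.3% and 97.2%), close to the 97% and 98.3% among all genes that passed.

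Many of the falls were shared. Of the genes that fell, 23 did so in both genotypes, 82.1% of the null list and 67.6% of the wild-type list. These comparisons share no arrays. The same overlap was not computed over all genes, so these shares are not shown to be particular to the 74. Centring each array on its median cut the falls to 17 in null and 26 in wild-type cells, with 11 and 3 genes rising. The falls were then 23.0% of the 74 in null and 35.1% in wild-type cells, against 17.3% and 15.8% of all genes, of which 25.0% and 23.2% were higher. With the 40% dimmest genes left out, 44.9% of 69 genes fell in null and 55.1% in wild-type cells, against 31.0% and 29.8% of all genes kept.

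**Figure D2:**
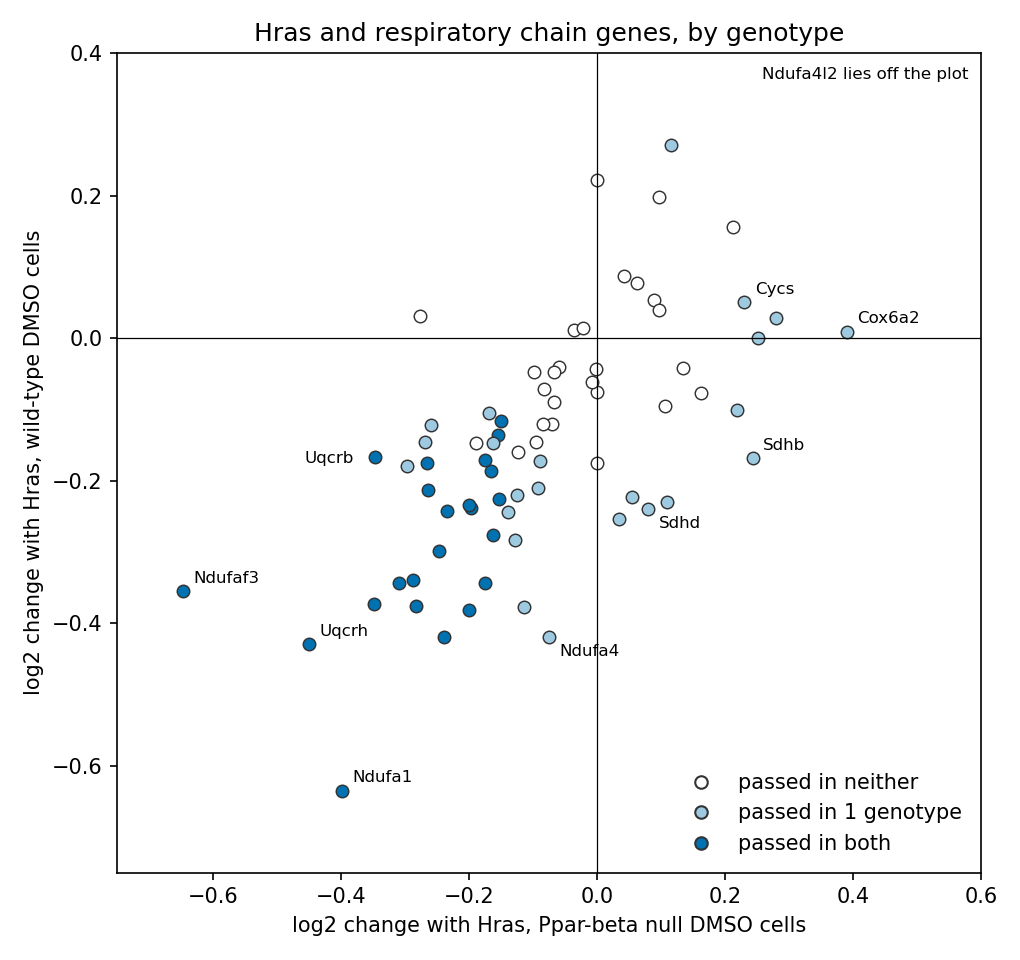
Log2 change with Hras over mock in null DMSO cells (x axis) against wild-type DMSO cells (y axis), 1 point a gene, for 73 of the 74 respiratory chain genes; shading gives whether the gene passed in neither, 1 or both genotypes. Most points lie in the lower left, where 23 genes fell in both, and Ndufa4l2, at 1.48 and 1.14, lies off the plot.

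Of the 34 complex I subunits 15 fell in null and 18 in wild-type cells, against 4 and 5 of the 9 complex III and 5 and 7 of the 10 common complex IV subunits. Ndufa1, a small membrane-arm subunit needed to assemble the complex, read 8.69, 8.65 and 8.51 in null Hras DMSO cells, against 9.001, 9.07 and 8.97 in null mock DMSO cells. In wild-type cells it read 8.46, 8.37 and 8.22 with Hras, against 8.99, 9.03 and 8.95 with mock infection. The arrays overlapped in neither genotype, and Ndufa1 fell by 0.40 in null and by 0.64 in wild-type cells on the log2 scale (SE 0.09 each; adjusted p 0.00090 and 5.1e-06). Of the 28 accessory subunits 13 fell and 1 rose in null cells, and 14 fell and 0 rose in wild-type cells. Ndufa9 and Ndufa5 were among those that fell in both, by 0.28 and 0.24 in null and by 0.38 and 0.42 in wild-type cells. Of the 6 core subunits, 2 fell in null and 4 in wild-type cells, and Ndufs1, an iron-sulfur subunit, fell by 0.29 and by 0.34. Ndufb5 and Ndufa6, accessory subunits, fell by 0.20 and 0.25 in null and by 0.38 and 0.30 in wild-type cells. Ndufs7, which carries the last iron-sulfur cluster before ubiquinone, fell by 0.20 and by 0.23. Ndufv1, which binds NADH, fell by 0.22 in wild-type cells. Ndufa2 rose in null cells (0.25 ± 0.06).

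Among the 7 complex I assembly factors of the set, 2 fell and 1 rose in null cells, and 3 fell in wild-type cells. Ndufaf3 read 9.59, 9.42 and 9.30 in null Hras DMSO cells, against 10.01, 10.08 and 10.15 in null mock DMSO cells. In wild-type cells it read 9.62, 9.76 and 9.50 with Hras, against 9.96, 10.01 and 9.98 with mock infection. It fell by 0.65 in null and by 0.36 in wild-type cells (SE 0.07 each; adjusted p 1.5e-07 and 0.00037), with no overlap in either. Ndufaf4 rose in null cells (0.28 ± 0.07, adjusted p 0.0020). Outside the 74 genes, 6 of 20 other assembly genes fell and 3 rose in null cells, and 5 fell and 0 rose in wild-type cells. That is 45% and 25% passing in either direction, against 40.7% and 37.4% of all genes, so by that share the list was near or below the background. The shares of these 20 genes that fell were above the 20.5% and 19% of all genes that were lower. Acad9, known as a complex I assembly factor, fell by 0.95 and by 1.01 (SE 0.06 each), and Tmem126b, another, by 0.80 and by 0.68 (SE 0.10 each).

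Complex III and complex IV genes fell as well. Uqcrh, the hinge subunit near cytochrome c1, read 11.47, 11.47 and 11.40 in null Hras DMSO cells, against 11.82, 11.91 and 11.96 in null mock DMSO cells. In wild-type cells it read 11.40, 11.40 and 11.36 with Hras, against 11.81, 11.78 and 11.86 with mock infection. Both pairs of groups were apart, and it fell by 0.45 in null and by 0.43 in wild-type cells (SE 0.05 each; adjusted p 1.2e-07 and 2.7e-07). None of the 9 complex III genes rose in either genotype. Uqcrb fell by 0.35 and by 0.17 (SE 0.05 each), and Uqcrc1, a core protein of the complex, by 0.27 and by 0.17 (SE 0.05 each). Cyc1, the cytochrome c1 gene, did not pass (-0.0004 ± 0.0509 in null and -0.08 ± 0.05 in wild-type cells). Of the 10 common complex IV genes 1, Cox5a, rose in null cells and 0 in wild-type cells. Cox6a1, the common form of a regulatory subunit, fell by 0.35 and by 0.37 (SE 0.08 each; adjusted p 0.0014 and 0.00085). Its arrays read 11.47, 11.32 and 11.35 in null Hras DMSO cells, against 11.78, 11.80 and 11.60 in null mock DMSO cells.

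Cycs, the mobile carrier between complexes III and IV, did not follow the falls. It read 12.28, 12.34 and 12.43 in null Hras DMSO cells, against 12.11, 12.09 and 12.16 in null mock DMSO cells. The groups did not overlap, and it rose by 0.23 ± 0.07 (adjusted p 0.013). The call was lost without null Hras DMSO replicate 3 (0.19, adjusted p 0.070) and with the mean of its probe sets (0.16, adjusted p 0.19). In wild-type cells its change was 0.05 ± 0.07 (adjusted p 0.66).

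The paralogues Ndufa4 and Ndufa4l2 differed with Hras. Ndufa4, named for complex I but a subunit of complex IV, read 10.65, 10.67 and 10.69 in wild-type Hras DMSO cells, against 11.16, 11.10 and 11.01 in wild-type mock DMSO cells. It fell by 0.42 there (SE 0.07, adjusted p 6.7e-05), and its change was -0.08 ± 0.07 in null cells. Ndufa4l2 read 8.62, 9.74 and 9.62 in null Hras DMSO cells, against 7.87, 7.79 and 7.87 in null mock DMSO cells. In wild-type cells it read 8.15, 8.83 and 8.97 with Hras, against 7.51, 7.67 and 7.34 with mock infection. No arrays overlapped, the spread was wide in the Hras groups, and it rose 2.79-fold in null and 2.21-fold in wild-type cells (log2 changes 1.48 and 1.14, SE 0.23 each; adjusted p 1.5e-05 and 0.00034). Both calls held in all 13 alternatives.

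Of the other 7 tissue isoforms, 1 passed in each genotype. Cox6a2, the heart and skeletal muscle form, read 8.25, 8.56 and 8.50 in null Hras DMSO cells, against 8.07, 7.93 and 8.14 in null mock DMSO cells, and rose by 0.39 ± 0.08 (adjusted p 0.00064). Cox6b2, the testis form, rose in wild-type cells by 0.27 ± 0.08 (adjusted p 0.0098), a call lost without replicate 1 of either group (adjusted p up to 0.070). Both genes were dim: over the 24 arrays Cox6b2 averaged 7.37 and Cox6a2 8.16, where the median gene averaged 7.95. No detection limit was set, so expression of these isoforms is not shown. Beside these, 0 of 8 skeletal muscle markers passed with Hras in null cells (limma; 0 also at an unadjusted p under 0.05), and 1 (Acta1, 0.70 ± 0.11) rose in wild-type cells. The summed level of those markers was 10.2 on null Hras DMSO arrays (log2 of the sum), against 10.2 to 10.3 on null mock DMSO arrays.

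**Figure D3:**
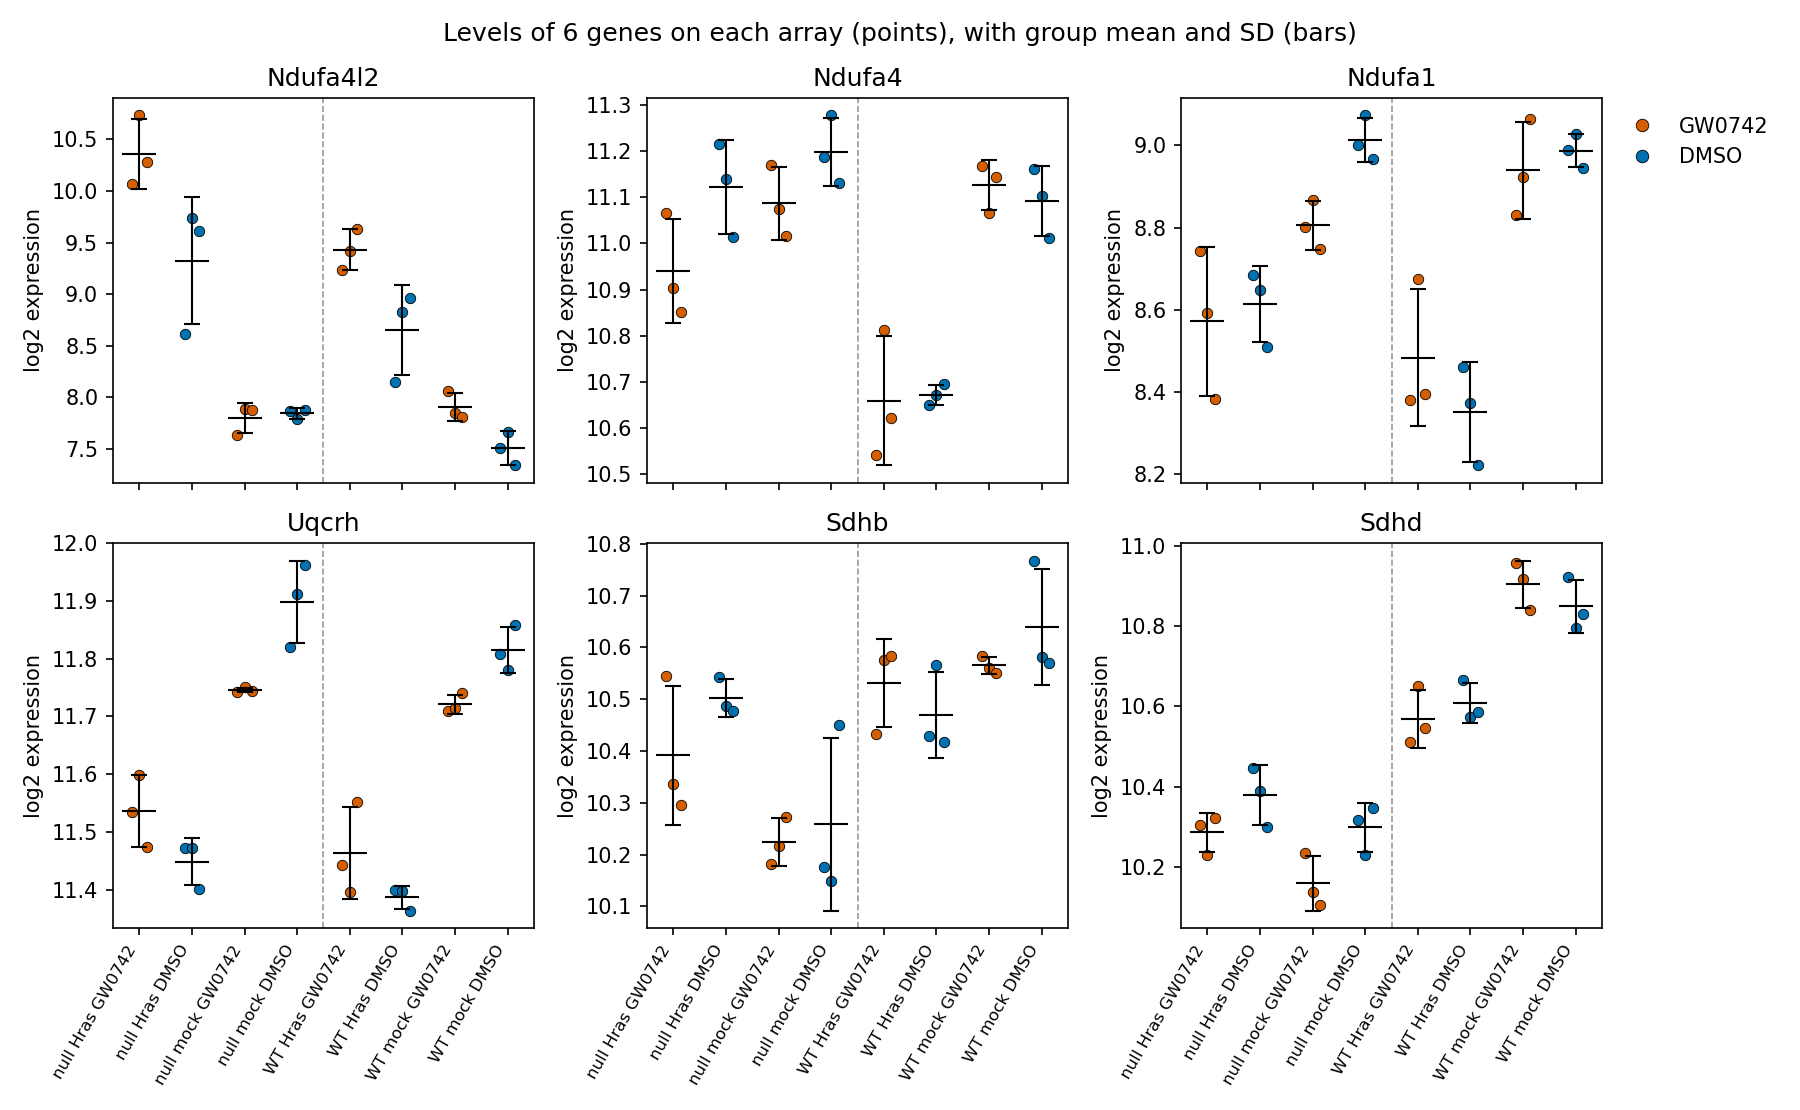
Log2 expression (y axis) of 6 genes on each array in the 8 groups (x axis; null groups left of the dashed line, wild type right of it), with points for arrays, orange for GW0742 and blue for DMSO, and bars for the group mean and SD of 3 arrays. Ndufa4l2 stands highest in the Hras groups, Ndufa1 and Uqcrh are low there, Ndufa4 is low in the wild-type Hras groups, and Sdhd is lower in null cells than in their wild-type counterparts in every condition.

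Genes for electron entry elsewhere moved in both directions with Hras. Of 8 genes for other routes to ubiquinone, 5 rose and 2 fell in null cells, and 3 rose and 3 fell in wild-type cells (87.5% and 75% passed, against 40.7% and 37.4% of all genes). Gpd2, the mitochondrial glycerol phosphate dehydrogenase, rose by 1.22 ± 0.05 and 0.93 ± 0.05, and Sqor by 0.97 ± 0.08 and 0.72 ± 0.08. Etfdh fell by 0.61 and by 0.68 (SE 0.09 each). Of the 12 regulators of mitochondrial biogenesis 4 rose and 4 fell in null cells (66.7% passed), and 1 rose and 2 fell in wild-type cells (25%), the second below the share of all genes. Ppargc1b, a coactivator of mitochondrial genes, fell by 0.58 and by 0.70 (SE 0.07 each), while Tfam, the packaging factor of mitochondrial DNA, rose by 0.42 and 0.40 (SE 0.11 each). Of 17 ATP synthase genes 5 fell in null and 6 in wild-type cells, and none rose, where 20.5% and 19% of all genes were lower. The share of the list that fell was above these 2 shares in both genotypes. The share that passed in either direction was below the 40.7% and 37.4% of all genes.

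Markers of cell types moved with Hras too. The fibroblast markers had 5 of 8 lower and 1 higher in null cells, and 8 of 8 lower in wild-type cells. Their summed level was 12.6 to 12.9 on null Hras DMSO arrays, against 13.3 on null mock DMSO arrays, and 12.5 to 12.7 on wild-type Hras DMSO arrays, against 13.87 to 14.01 on wild-type mock DMSO arrays. All 9 melanocyte markers and 8 of 11 keratinocyte markers fell in both genotypes, where 20.5% of all genes in null and 19% in wild-type cells were lower. Krt1 and Krt10, keratins of differentiating cells, fell by 5.13 and 4.85 in null and by 5.80 and 4.85 in wild-type cells. The leukocyte markers summed to 9.60 to 9.68 with Hras in null DMSO cells, against 10.15 to 10.23 with mock infection. In wild-type DMSO cells they summed to 9.44 to 9.47, against 9.68 to 9.86. The adipocyte markers went the other way, at 9.70 to 9.77 against 9.29 to 9.31 in null cells. In wild-type cells they were at 9.51 to 9.67, against 9.17 to 9.33. The part of these markers in the lower respiratory chain genes was not tested.

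**Figure D4:**
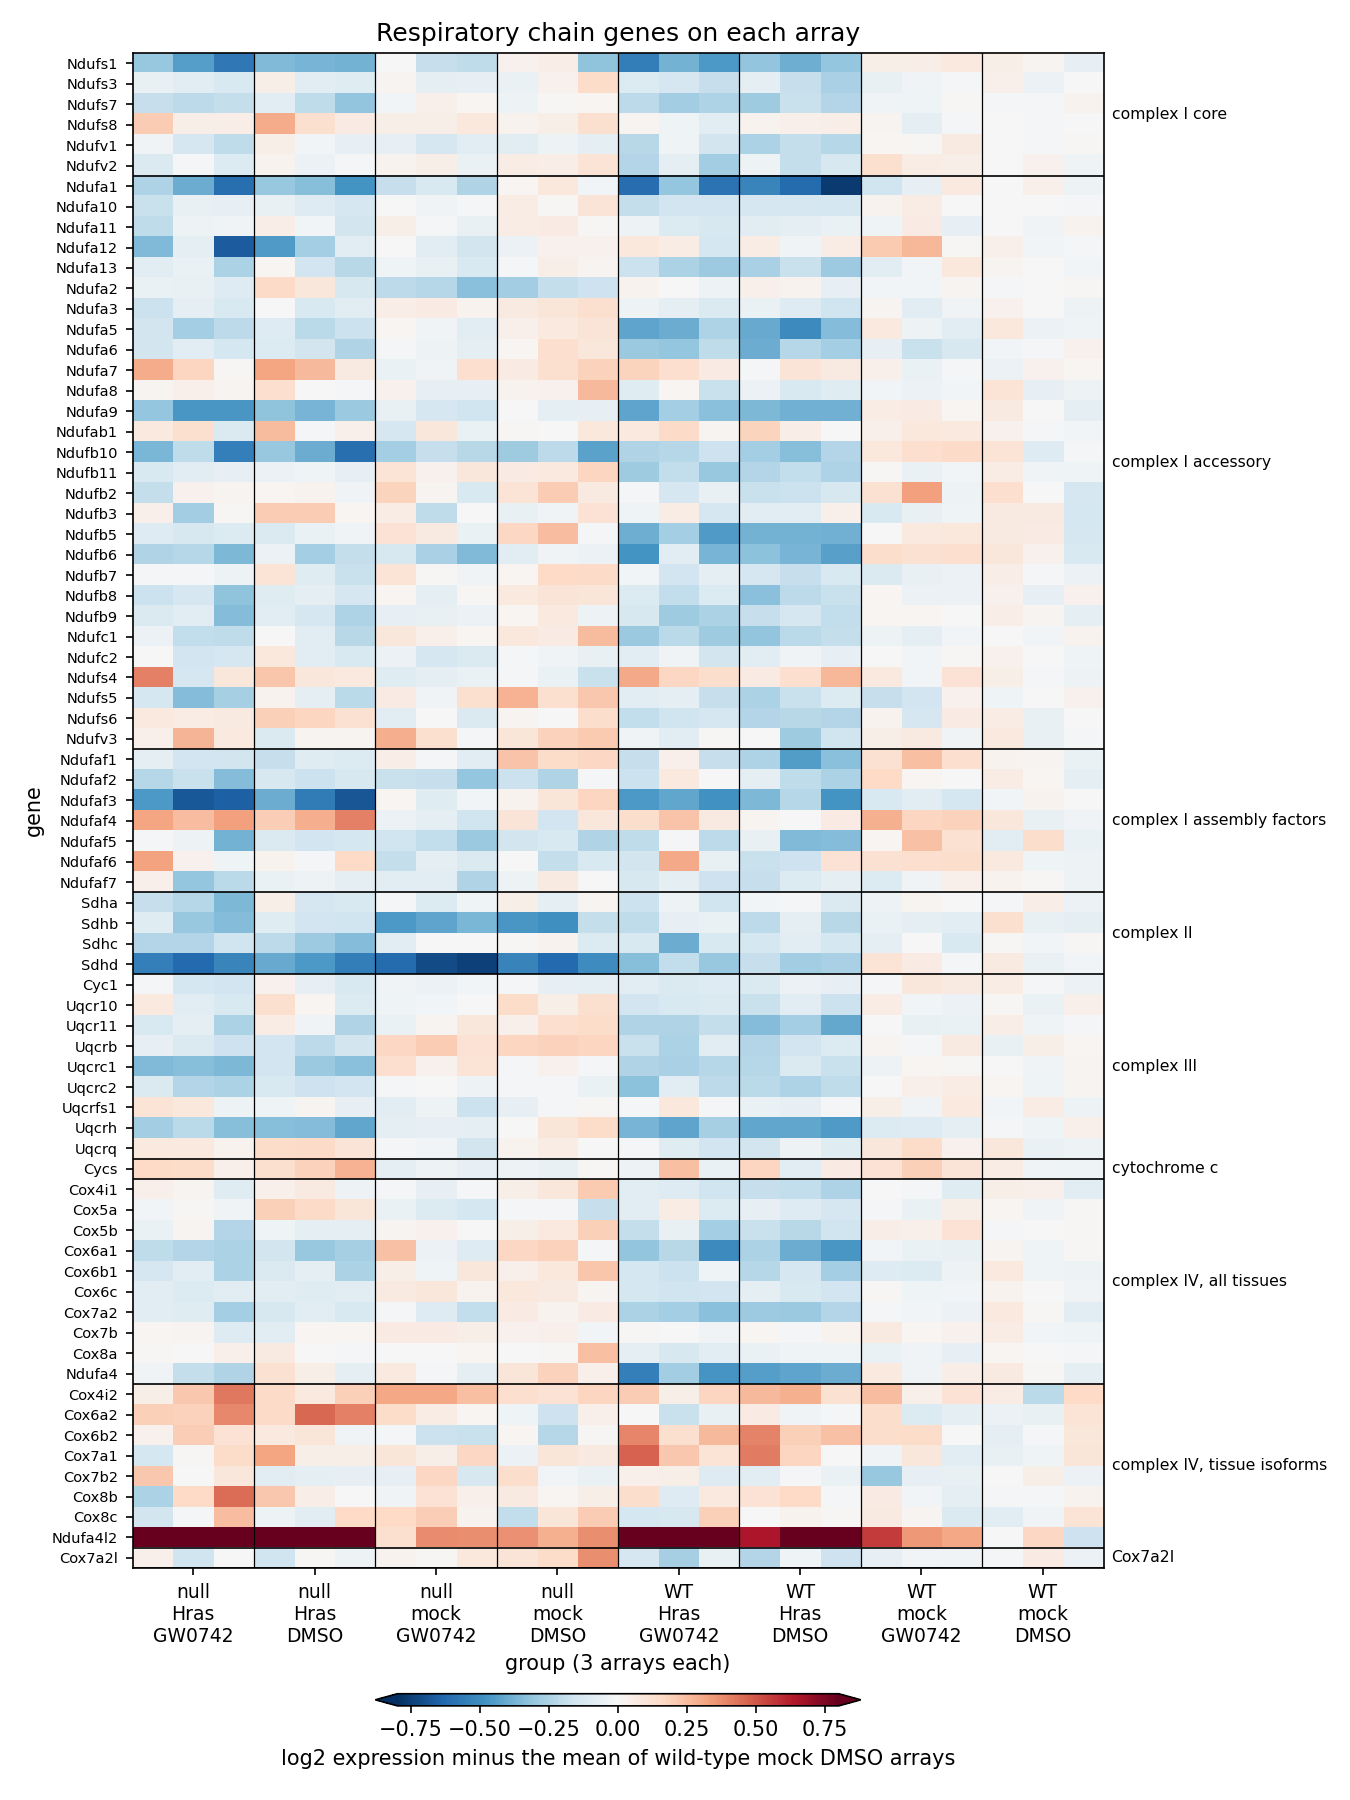
Log2 expression of each respiratory chain gene (rows, by complex) on each of the 24 arrays (columns, in 8 groups), as the difference from that gene's mean over the wild-type mock DMSO arrays. Blue is lower and red higher, and values beyond the ends of the colour scale, those of Ndufa4l2 in the Hras groups among them, take the end colour.

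Between genotypes in mock DMSO cells, the largest differences that passed among the 74 genes were in complex II. In all, null cells had 1 of the 74 genes higher and 4 lower than wild-type cells, where 10.4% of all genes passed and 5.53% were lower, so the count for the 74 was near that of all genes. Sdhd, which anchors complex II in the membrane, read 10.32, 10.23 and 10.35 in null cells, against 10.92, 10.80 and 10.83 in wild-type cells. Sdhb, its iron-sulfur subunit, read 10.18, 10.15 and 10.45 in null cells, against 10.77, 10.58 and 10.57 in wild-type cells. Neither pair of groups overlapped, and Sdhd was 0.55 lower (SE 0.06, adjusted p 8.6e-07) and Sdhb 0.38 lower (SE 0.08, adjusted p 0.0023) in null cells. Both calls held in all 13 alternatives. The other subunits, the flavoprotein Sdha (-0.0022 ± 0.0602) and the anchor Sdhc (-0.02 ± 0.06), did not pass.

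Sdhd was lower in null cells in each of the 4 conditions. With GW0742 it read 10.23, 10.14 and 10.11 in null mock cells, against 10.96, 10.92 and 10.84 in wild-type mock cells. In Hras cells with DMSO it read 10.45, 10.39 and 10.30 in null cells, against 10.67, 10.57 and 10.59 in wild-type cells, and was 0.23 lower (SE 0.06, adjusted p 0.0055). With Hras and GW0742 it read 10.31, 10.23 and 10.32 in null cells, against 10.51, 10.65 and 10.55 in wild-type cells, again without overlap. The 2 comparisons with GW0742 were not tested.

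The other genes called between mock DMSO genotypes were less stable. Ndufb10 was 0.31 ± 0.08 lower in null cells (adjusted p 0.016), a call lost without wild-type replicate 1 or null replicate 3 (adjusted p 0.11 in both). Ndufa2 was 0.21 ± 0.06 lower (adjusted p 0.022), lost without each wild-type array or null replicate 1 (0.057 to 0.10). Uqcrb, which helps to bind ubiquinone in complex III, was 0.18 ± 0.05 higher (adjusted p 0.027), lost without wild-type replicate 1 or 3 and without each null array (0.058 to 0.15). Ndufb10 lies on chromosome 17 with Ppard, as do 6 more of the 74 genes, none of which passed in mock or Hras DMSO cells. Beside these, 7 of 8 fibroblast markers were lower in null mock DMSO cells, with summed levels of 13.3 against 13.87 to 14.01 in wild-type cells, as were 5 of 9 melanocyte markers, and their part was not tested.

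In Hras DMSO cells more of the 74 genes were higher in null than in wild-type cells. There 16 were higher and 1, Sdhd, lower, where 19.4% of all genes passed and 10.1% were higher, against 21.6% of the 74. Only the arrays compared, fitted alone, gave 11 genes. Ndufs6, a zinc-binding complex I subunit, read 10.46, 10.44 and 10.39 in null cells, against 10.03, 10.05 and 10.03 in wild-type cells. Ndufa4 read 11.21, 11.14 and 11.01 in null cells, against 10.65, 10.67 and 10.69 in wild-type cells. Neither overlapped, and they were 0.39 ± 0.05 and 0.45 ± 0.07 higher (adjusted p 1.8e-05 and 0.00011). Others were Ndufb5 (0.31 ± 0.07), Uqcr11 (0.27 ± 0.07), Cox5a (0.25 ± 0.05) and Cox4i1 (0.24 ± 0.05). Ndufa4l2 was 0.67 ± 0.23 higher with overlapping arrays, a call that held in 7 of 13 alternatives. It was lost without wild-type replicate 1 or 2 or null replicate 2 or 3, where the change was 0.43 to 0.76 (adjusted p 0.053 to 0.25). Beside these, 4 of 8 fibroblast markers were higher in null Hras DMSO cells, with summed levels of 12.6 to 12.9 against 12.5 to 12.7. Of the other lists, 4 of 11 keratinocyte, 2 of 8 leukocyte and 2 of 6 adipocyte markers were higher and none lower, 1 of 8 skeletal muscle markers (Acta1) was lower, and 0 of 9 melanocyte markers passed (0 higher and 1 lower unadjusted). The part of these markers was not tested.

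The difference of the Hras effect between genotypes passed for 8 of the 74 genes, all with a higher value in null cells, where 16.8% of all genes passed and 8.35% were higher. The share of the 74 was 10.8%, near that of all genes. These were Sdhb (0.41 ± 0.11), Cox6a2 (0.38 ± 0.12), Ndufa4 (0.34 ± 0.10), Ndufs6 (0.34 ± 0.08), Sdhd (0.32 ± 0.08), Cox5a (0.32 ± 0.08), Ndufv1 (0.28 ± 0.07) and Ndufa2 (0.25 ± 0.08). For Sdhb the Hras effect was 0.24 ± 0.08 in null cells (adjusted p 0.015) and -0.17 ± 0.08 in wild-type cells (adjusted p 0.10). The rise in null cells was lost without mock replicate 1 or 2 or Hras replicate 1 of the null DMSO groups (adjusted p 0.053 to 0.094). For Sdhd the effect was 0.08 ± 0.06 in null cells and -0.24 ± 0.06 in wild-type cells (adjusted p 0.31 and 0.0016). The differences for Sdhb, Sdhd, Cox5a, Ndufs6 and Ndufv1 held in all 19 alternatives. For Ndufa4 the call was lost without mock replicate 1 or Hras replicate 1 of wild-type cells, and without mock replicate 3 or Hras replicate 1 or 2 of null cells (adjusted p up to 0.070). For Cox6a2 it was lost without mock replicate 3 or Hras replicate 2 or 3 of wild-type cells, and without mock replicate 2 or Hras replicate 2 or 3 of null cells (up to 0.10). For Ndufa2 it was lost with only the arrays compared and without most single arrays, those kept being Hras replicate 1 of wild-type cells and mock and Hras replicate 3 of null cells (up to 0.12). The fibroblast markers had 7 of 8, and the melanocyte markers 5 of 9, with a higher Hras effect in null cells, and their part was not tested.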

How the data were processed

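Per the submitters' processing notes, the deposited log2 expression values are RMA values, in which the authors' software corrects background, quantile-normalizes arrays and summarises probes. No RMA version was found. Quantile normalization removes a change shared by most genes. Of 34760 probe sets, the 21640 with 1 gene symbol gave 19937 genes, with no filter on dim genes. Rule symbols on 6 probe sets with several symbols were not used here. All 74 genes matched RefSeq (GRCm38.p6) by Entrez identifier.

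The 8 group means were estimated from all 24 arrays by limma 3.58.1 (R 4.3.3, lmFit and eBayes), leaving 16 residual degrees of freedom plus 4.43 from the prior. The 12 comparisons comprised 8 between groups and 4 differences of differences. Tests were two-sided, with Benjamini-Hochberg adjustment over all genes within a comparison and a threshold of 0.05, and intervals are 95%. The procedure was tested on simulated data. Python 3.11.15, pandas 2.3.3 and matplotlib 3.10.9 prepared tables and figures.

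Pairing by replicate number was checked by correlating the deviations of same-numbered arrays from their group means. The correlations ran from -0.133 to 0.241, and all 3 exceeded 0.1 only between null and wild-type mock DMSO cells (0.118 to 0.144), which a replicate block then left at 5 genes. Any of the 74 genes could be named; of these the rule took, per comparison, up to 10 rises and 10 falls that passed without overlapping arrays, plus up to 4 genes of each other list and a fixed set of marker and regulator genes. Alternatives were array centring, leaving out the 40% dimmest genes, trend and robust moderation, the mean of a gene's probe sets, only the arrays compared, the replicate block, leaving out the null Hras GW0742 group where it was not compared, and leaving out each array. The members and lists were chosen with earlier results of these data known.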

Additional observations from a re-analysis of the deposited data

Results flagged for a closer look

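The Hras effect differed between null and wild-type DMSO cells for 8 respiratory chain genes by limma's test of the difference (null minus wild type, log2). That is 10.8% of the 74, all higher in null cells, against 16.8% of all genes passing and 8.35% higher, so the count is near the background and nothing is read from it about the set. The differences were 0.4124 for Sdhb, 0.3812 for Cox6a2, 0.3436 for Ndufa4, 0.3386 for Ndufs6, 0.3206 for Sdhd, 0.3193 for Cox5a, 0.2781 for Ndufv1 and 0.2504 for Ndufa2. The same test passed for 8 of the 18 fatty acid oxidation genes, 1 with a higher and 7 with a lower Hras effect in null cells. The GW0742 effect differed between null and wild-type cells for 10 fatty acid oxidation genes in mock cells and 12 in Hras cells, all lower in null cells. Between wild-type Hras and wild-type mock cells it differed for 3, of which 2 were higher with Hras.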

How the results depend on the processing

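Counts of the 74 genes passing stayed within 1.5 times the reported count in most settings. The agonist effect in wild-type Hras cells gave 1 gene with centring, 1 with trend and robust moderation, 0 with only the arrays compared, and 0 to 1 on leaving out an array, against 2. In null Hras cells it gave 3 without the dimmest genes, 3 with trend and robust moderation, 0 with only the arrays compared and 0 to 4 on leaving out an array, against 1. Null minus wild type gave 8 without the dimmest genes and 2 to 4 on leaving out an array in mock DMSO cells, against 5, and 11 with only the arrays compared and 12 to 18 on leaving out an array in Hras DMSO cells, against 17. The genotype difference of the agonist effect in mock cells gave 1 without the dimmest genes, 1 with trend and robust moderation, 1 with only the arrays compared and 0 to 1 on leaving out an array, against 0. On leaving out an array the Hras effect ran from 29 to 33 in null and 30 to 36 in wild-type cells, and its genotype difference from 5 (without null Hras DMSO replicate 2) to 8. The count of null minus wild type in mock DMSO cells was 2 without wild-type replicate 1, and 3 without wild-type replicate 3 or null replicate 3. In the wild-type Hras agonist comparison it was 0 without replicate 2 of either group. In the null Hras one dropping GW0742 replicate 1 gave 4, dropping DMSO replicate 3 gave 2, and dropping DMSO replicate 1 or GW0742 replicate 2 gave 0. The other agonist comparisons stayed at 0 in all settings run; leaving out the null Hras GW0742 group could not be run where that group was compared. With the replicate number as a block, null minus wild type in mock DMSO cells gave 5 genes, the same 5, and no other count moved by over 1.5 times. The cause of these shifts was not tested. With 3 arrays a group, small changes could be missed, and a gene that did not pass is not shown to be unchanged.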
